A study of Mus musculus with 10 samples.

Results

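S100a9, Ngp and Padi4 are 3 mouse genes best known from granulocytes, the short-lived white blood cells dominated by neutrophils. They were followed here across 10 two-colour cDNA arrays, on which RNA of one condition competes with RNA of another for the same spots. The features of the 3 genes are those whose single gene symbol in the platform table is S100a9, Ngp or Padi4. Each gene had 1 feature, so 3 of 9596 features and 3 of 6795 named genes are described. The genes were chosen on log ratios of these same arrays, with earlier results in view, so their own values are given as a description with no test.

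RNA came from 8-week-old C57/6N black mice. One source was the peritoneal exudate (PEC), labelled as macrophages of the peritoneum, and the other was macrophages from tumours (TAM), harvested 3 weeks after implantation of a tumour whose line the labels do not name. Both were adherent cells kept in culture, either untreated or given 100 ng/mL lipopolysaccharide (LPS, a bacterial cell-wall component) for 4 hours. Untreated TAM were set against untreated PEC on 4 arrays, named TAM-2R, TAM-3, TAM-8 and TAM-b. PEC with LPS were set against untreated PEC on 2 (PEC1 and PEC2), TAM with LPS against untreated TAM on 2 (TAM-trial and TAM-16), and TAM with LPS against PEC with LPS on 2 (TAM1 and TAM7). Adherence was the only selection of cells that the labels give, and a log ratio carries no level, so the presence of macrophages or of granulocytes in either harvest could not be read from marker levels. Nothing in the labels says that repeated arrays used separate animals or cultures, so their spread may be technical.

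Neutrophils mature in the bone marrow and load their granules in waves as they do so. S100a9 forms the calprotectin heterodimer with S100a8, a calcium- and zinc-binding complex of the cytosol that is also made by monocytes and released at sites of inflammation. Ngp (neutrophilic granule protein) is a cystatin-like relative of the cathelicidins carried in secondary granules and made late in granulocyte maturation. Padi4 is a peptidylarginine deiminase that converts arginine residues of histones to citrulline, a step in the release of neutrophil extracellular traps. In tumours, cells of the granulocyte lineage accumulate beside macrophages, and S100a9 is among the genes used to recognise them.

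The 3 genes lie on different chromosomes, and their promoters are shown because the genes are known from the same lineage and parted ways on these arrays. Each window runs 5′ to 3′ from 250 bases before to 50 bases after the start annotated by RefSeq in GRCm38.p6. Capitals mark matches, on either strand, to motifs of factors that drive granulocyte or inflammatory genes or start transcription: C/EBP (TTGCNNAA), PU.1 (GAGGAA), AP-1 (TGANTCA), NF-kB (by its consensus) and the TATA box (TATAAA).
S100a9, chr3:90695672-90695971, minus strand: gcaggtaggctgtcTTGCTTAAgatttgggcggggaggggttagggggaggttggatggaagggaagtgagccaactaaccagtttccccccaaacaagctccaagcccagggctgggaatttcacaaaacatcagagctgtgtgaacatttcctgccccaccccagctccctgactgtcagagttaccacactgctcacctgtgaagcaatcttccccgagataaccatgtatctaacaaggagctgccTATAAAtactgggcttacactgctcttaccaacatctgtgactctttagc
Ngp, chr9:110419558-110419857, plus strand: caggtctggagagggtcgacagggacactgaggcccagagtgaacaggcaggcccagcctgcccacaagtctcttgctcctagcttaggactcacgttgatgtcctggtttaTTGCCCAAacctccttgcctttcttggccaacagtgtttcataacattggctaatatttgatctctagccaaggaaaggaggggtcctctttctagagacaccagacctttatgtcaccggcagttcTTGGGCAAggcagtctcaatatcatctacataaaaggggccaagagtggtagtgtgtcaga
Padi4, chr4:140774154-140774453, minus strand: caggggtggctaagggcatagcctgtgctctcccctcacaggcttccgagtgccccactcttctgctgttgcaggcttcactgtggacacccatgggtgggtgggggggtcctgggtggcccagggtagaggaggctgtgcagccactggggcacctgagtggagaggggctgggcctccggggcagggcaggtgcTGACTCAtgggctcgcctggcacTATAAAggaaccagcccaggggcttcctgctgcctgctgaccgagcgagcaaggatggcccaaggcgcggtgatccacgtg
The C/EBP motif was found in the windows of S100a9 (236 bases before the start) and Ngp (138 and 11 bases before it), and 10.8% of all 32851 promoter windows of the same length hold it. Padi4 had an AP-1 match 54 bases before its start (7.8% of windows) and a TATA box match 31 bases before it (13.6% of windows). S100a9 had a TATA box match at the annotated start itself. The PU.1 motif (28.3% of windows) and the NF-kB motif (8.5%) were in none of the 3 windows. A match is a stretch of letters and not evidence of binding.

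Each deposited value is a log ratio, read as log2 of the first-named condition over the other. Which dye marked which RNA is not stated, so directions are likely rather than certain. They rest on reading channel 2 over channel 1, which puts Il1b, an inflammatory cytokine that LPS is known to induce, at 3.53 and 6.36 on the 2 arrays of LPS in PEC. The labels of TAM1 and TAM-2R name the sources in the opposite channels, and the sign of both arrays was turned. Values of these 2 arrays are given turned unless stated otherwise. After turning, TAM-2R correlated with the others of its comparison at r from 0.036 to 0.101 across 9596 features, too weakly to settle its coding. TAM-3 also correlated weakly, at r = 0.08 with TAM-b and 0.054 with TAM-8, while TAM-b and TAM-8 had r = 0.329. TAM1 correlated with TAM7 at r = 0.293. The arrays came from 3 prints, v1p1 (PEC1), v9p2 (TAM-8, TAM-trial and TAM7) and v3p6 (the other 6). Whether a feature passed the test below means an adjusted p under 0.05 by limma over 8905 genes and unnamed features.

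S100a9 was higher in untreated TAM than in PEC on 4 of 4 arrays with TAM-2R turned (3 of 4 with it as deposited) and higher with LPS in PEC on 2 of 2. In the comparison of untreated cells its log2 ratio was 2.43 on TAM-b, 1.10 on TAM-2R, 3.49 on TAM-3 and 0.66 on TAM-8. The mean was 1.92 ± 1.29 (SD, n = 4), a 3.78-fold difference, and it was 1.4 without TAM-3, the highest array. With TAM-2R as deposited, at -1.10, the mean was 1.37 ± 2.02 (SD, n = 4). Of the 3 genes, 2 (S100a9 and Ngp) lay above 0 on all 4 arrays, as did 8.77% of all genes and features. With TAM-2R as deposited 0 of the 3 did, and 6.34% of all. In bulk RNA of this kind, fewer cells of a type and less RNA per cell cannot be told apart. With LPS in PEC the 2 arrays were close to each other, at 1.22 on PEC1 and 1.51 on PEC2 (mean 1.37 ± 0.21, SD, n = 2; 2.58-fold). There S100a9 and Padi4 were above 0 on both arrays, as were 31.4% of all. With LPS in TAM the arrays fell on both sides of 0, at -0.28 on TAM-trial and 0.66 on TAM-16 (mean 0.19 ± 0.67, SD, n = 2). With LPS in both cells, TAM and PEC differed little in S100a9, at 0.21 on TAM1 and 0.17 on TAM7 (mean 0.19 ± 0.03, SD, n = 2).

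**Figure D1:**
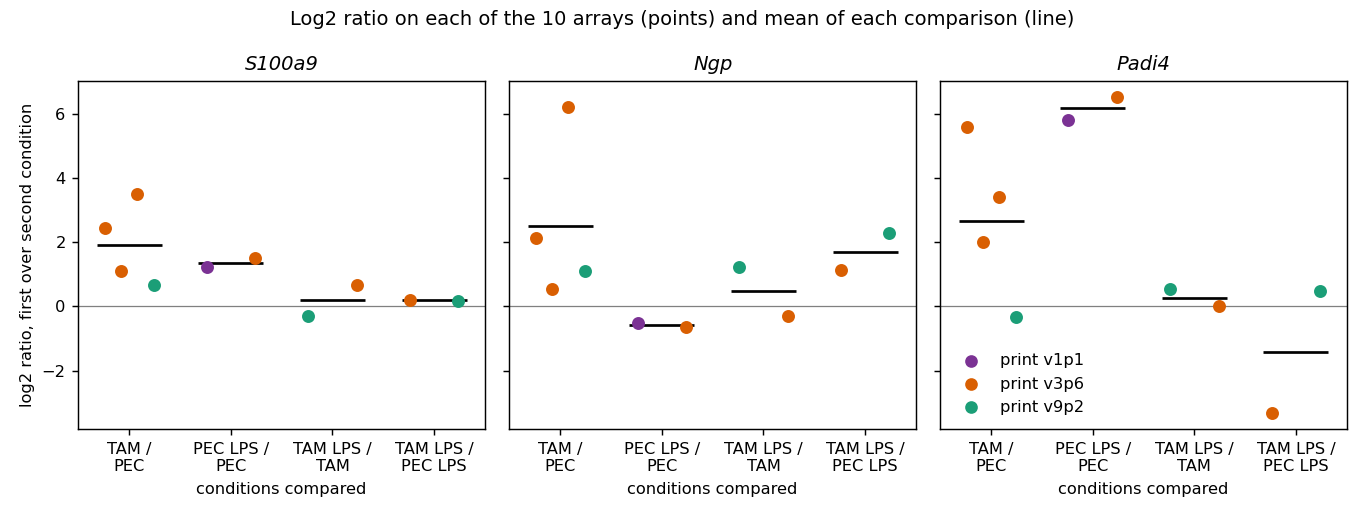
Log2 ratio of S100a9, Ngp and Padi4 on each array (points, coloured by array print) for the 4 pairs of conditions compared, with the mean of each comparison as a line. With TAM-2R turned, S100a9 lies above 0 on all 4 arrays of untreated TAM over PEC, Ngp has 1 array (TAM-3, 6.21) far above the others, and the 3 arrays of print v9p2 hold Padi4 between -0.32 and 0.53.

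With TAM-2R and TAM1 turned, Ngp was higher in TAM than in PEC both without and with LPS. Without LPS its value on TAM-3 was far above the others. Its log2 ratio was 2.12 on TAM-b, 0.56 on TAM-2R, 6.21 on TAM-3 and 1.11 on TAM-8 (mean 2.50 ± 2.56, SD, n = 4). All 4 arrays lay above 0 with TAM-2R turned, but the SD was as large as the mean, and the mean was 1.26 without TAM-3. With TAM-2R as deposited 3 of 4 lay above 0, with a mean of 2.22 ± 2.88 (SD, n = 4). On TAM-3 Ngp ranked 23 from the highest of 8905, against 720 on TAM-b, 1104 on TAM-8 and 2473 on TAM-2R. With LPS in both cells Ngp was at 1.13 on TAM1 and 2.28 on TAM7 (mean 1.70 ± 0.81, SD, n = 2; 3.25-fold), above 0 on both, as were S100a9 and 32.9% of all genes and features. These ranked 410 and 248 from the highest, so the gene stood nearer to the top of its arrays there than on 3 of the 4 untreated arrays. With TAM1 as deposited, Ngp was at -1.13 on it, so the 2 arrays disagreed in sign, with a mean of 0.57. The LPS responses of Ngp were smaller. In PEC the values were -0.53 on PEC1 and -0.63 on PEC2 (mean -0.58 ± 0.07, SD, n = 2), below 0 on both where S100a9 was above it, and 32.5% of all genes and features were below 0 on both. In TAM they were 1.23 on TAM-trial and -0.29 on TAM-16 (mean 0.47 ± 1.08, SD, n = 2), which disagreed in sign.

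Padi4 had the widest range of the 3, with values that split by array print as well as by comparison. In untreated TAM against PEC its log2 ratio was 5.58 on TAM-b, 1.995 on TAM-2R, 3.40 on TAM-3 and -0.32 on TAM-8 (mean 2.66 ± 2.48, SD, n = 4), above 0 on 3 of 4. The mean was 1.69 without TAM-b and 3.66 without TAM-8. With TAM-2R as deposited, at -1.995, it was 1.67 ± 3.45 (SD, n = 4), with 2 of 4 above 0. The highest values of the gene were with LPS in PEC, 5.81 on PEC1 and 6.52 on PEC2 (mean 6.17 ± 0.50, SD, n = 2), where it ranked 26 and 3 from the highest of 8905. With LPS in TAM it was at 0.53 on TAM-trial and 0.005 on TAM-16 (mean 0.27 ± 0.37, SD, n = 2), both above 0, as were 22.4% of all. With LPS in both cells and TAM1 turned, the arrays disagreed, at -3.33 on TAM1, rank 8785 of 8905, and 0.48 on TAM7 (mean -1.42 ± 2.70, SD, n = 2). With TAM1 as deposited, at 3.33, both arrays lay above 0, with a mean of 1.91. On the 3 arrays of print v9p2 Padi4 stayed between -0.32 and 0.53. On the 6 arrays of print v3p6 it ran from -3.33 to 6.52, with 5 of 6 beyond 1 in size, and on the v1p1 array it was 5.81. S100a9 was likewise between -0.28 and 0.66 on the v9p2 arrays, with 0 of 3 beyond 1 in size, against 4 of 6 on v3p6. By contrast, Ngp was between 1.11 and 2.28 on the v9p2 arrays. The print and the comparison cannot be told apart for LPS in PEC, which has no v9p2 array.

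The Padi4 feature sits among the last features of the array design, and these stood apart on the same prints. When the features are taken in 104 groups of 96 consecutive feature numbers, Padi4 is in group 103, Ngp in group 15 and S100a9 in group 57. On the 7 arrays of prints v1p1 and v3p6, the 373 features of the last 4 groups had an SD of log2 ratios between 1.1 and 2.1 times that of the other 9223. On the 3 arrays of print v9p2 that ratio was between 0.99 and 1.13. The share of features beyond 3 in size was 11.5% in the last groups against 2.7% elsewhere on PEC2, 12.3% against 2.8% on TAM-b and 15.5% against 1.6% on TAM1. On the v9p2 arrays the share was 0.5% to 1.9% in the last groups and 1.7% to 2.1% elsewhere. The part of this spread in the Padi4 values was not tested.

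**Figure D2:**
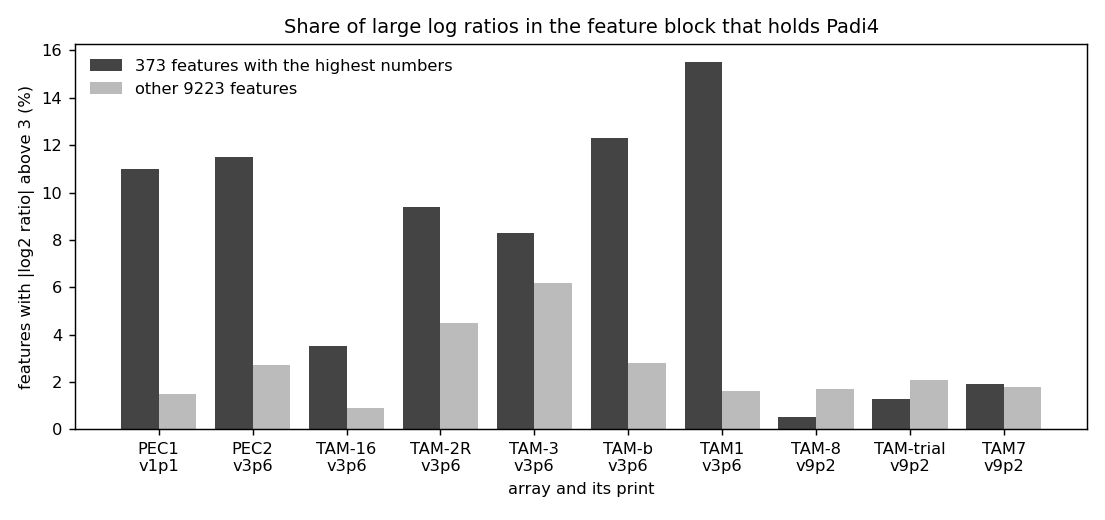
Percentage of features with a log2 ratio above 3 in size, per array, for the 373 features with the highest feature numbers (dark bars, the block that holds Padi4) and the other 9223 (light bars). The dark bars exceed the light ones on all 7 arrays of prints v1p1 and v3p6, and lie between 0.5% and 1.9% on the 3 arrays of print v9p2.

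The Padi4 values were also whole-number ratios on most of those arrays. Some log ratios recur exactly on an array. On TAM-3 the value 0.077 was shared by 260 features, and 44 and 21 features lay 1 below and 1 above it within 0.001, a spacing that log2 ratios of small whole numbers have. Taking the most repeated value of the last 4 groups as the ratio of equal signals, Padi4 lay at log2 of a whole number, within 0.001, on 5 of the 7 arrays. These numbers were 29 on PEC1, 51 on PEC2, 22 on TAM-b, 10 on TAM-3 and 1 on TAM-16, where Padi4 had the most repeated value itself (0.005, shared by 120 features). The other 2 arrays gave ratios of 3.8 (TAM-2R) and 3.9 (TAM1). Among all features that lay 4 to 6 from the most repeated value on these arrays, 89.5% of 133 in the last groups and 69.1% of 661 elsewhere were whole in the same sense. Padi4 lay in that range on PEC1, PEC2 and TAM-b, but not on TAM-3 or TAM-16. S100a9 and Ngp lay in it on none of these arrays, so the shares cannot be set beside their counts. S100a9 was whole on 0 of the 7 arrays and Ngp on 1 (TAM-b, a ratio of 2). The 6.21 of Ngp on TAM-3 was not whole at this tolerance. On TAM-b and TAM1 the most repeated value of the block was shared by only 7 and 9 of its features. Signal intensities were not used here, the cause was not tested, and this check was chosen after the data were seen.

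Features at the same place in each group of 96 shared part of their values on some arrays. On TAM-b the 103 features with the same place as S100a9 had a median log2 ratio of 1.88, on TAM-8 of 1.57, and on TAM-trial of 1.68. After that median was subtracted, S100a9 in untreated TAM against PEC was at 0.55 on TAM-b, 0.82 on TAM-2R, 3.35 on TAM-3 and -0.91 on TAM-8 (mean 0.95 ± 1.77, SD, n = 4). The direction on TAM-8 thus turned, and TAM-3 was left as the 1 array above 1. The LPS response of S100a9 in PEC was 0.25 on PEC1 and 1.15 on PEC2 on the same scale (mean 0.70 ± 0.64, SD, n = 2). For Ngp the untreated values became 0.14 on TAM-b, 0.84 on TAM-2R, 5.96 on TAM-3 and 0.61 on TAM-8, all still above 0 (mean 1.88 ± 2.73, SD, n = 4). With LPS in both cells Ngp stayed above 0 on both arrays, at 0.83 and 1.90. The untreated values of Padi4 became 6.42, 2.39, 3.82 and -0.08, in the same order and with the same signs as before.

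**Figure D3:**
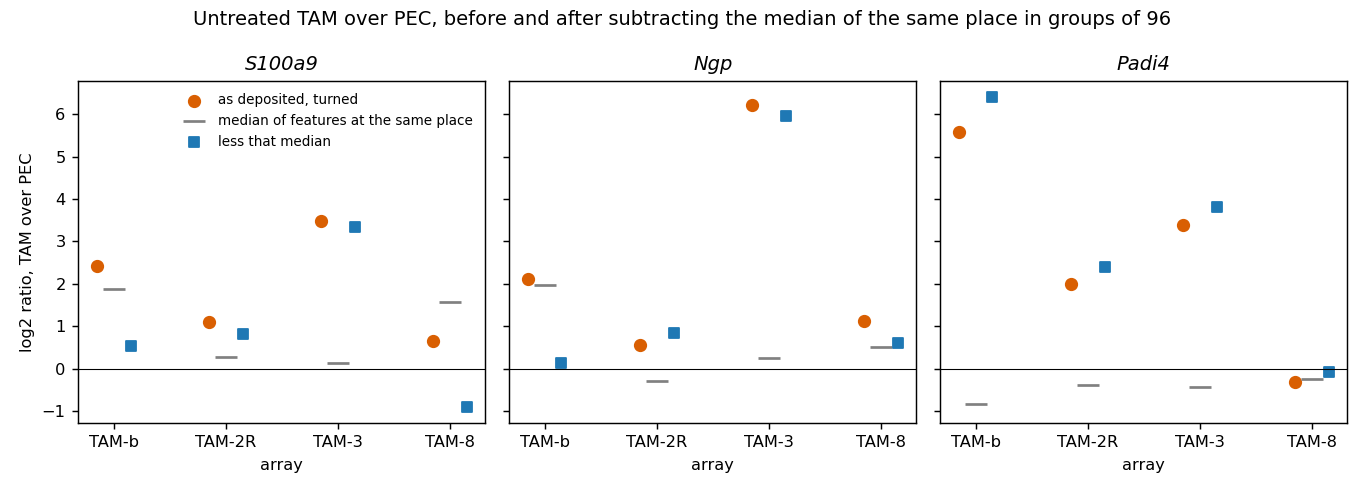
Log2 ratio of untreated TAM over PEC on 4 arrays for each gene, with TAM-2R turned (circles), the median of the features at the same place in groups of 96 feature numbers (dashes), and the difference of both (squares). S100a9 on TAM-8 goes from 0.66 to -0.91 and Ngp on TAM-b from 2.12 to 0.14, while TAM-3 stays at 3.35 and 5.96 for S100a9 and Ngp.

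None of the 3 genes passed the test in any comparison, and nothing is read from that, since they were picked from these data. In untreated TAM against PEC 0 of 3 were past an adjusted p of 0.05 by limma, and 0.46% of all genes and features were. At an unadjusted p under 0.05 the counts were 3 of 3 and 14.3%. With LPS in PEC 0 of 3 passed (0.0112% of all), and 1 of 3, Padi4, had an unadjusted p under 0.05 (8.14% of all). With LPS in TAM 0 of 3 passed (0.0% of all), with 0 of 3 at an unadjusted p under 0.05 (5.58% of all). With LPS in both cells 0 of 3 passed (0.0674% of all), with 0 of 3 at an unadjusted p under 0.05 (8.99% of all).

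The arrays close a loop, so the difference between untreated TAM and PEC also has an indirect value from the other 6 arrays, by way of both LPS responses. For S100a9 the direct log2 ratio of 1.92 had an indirect counterpart of 1.37, a difference of 0.55 (standard error of the limma fit 1.19). For Ngp the direct 2.50 stood against 0.65 (difference 1.85, standard error 2.06). For Padi4 the direct 2.66 stood against 4.47 (difference -1.81, standard error 2.25). These are given as values of the picked genes, and nothing is read from their closeness. The LPS response of TAM minus that of PEC was -1.18 for S100a9 (standard error 0.90), 1.05 for Ngp (1.56) and -5.90 for Padi4 (1.70). Of the 3, 1 (Padi4) had an unadjusted p under 0.05 for it, as did 6.87% of all, and 0 of the 8905 genes and features passed the limma test of that difference (612 at that unadjusted p).

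Of 9 partners and relatives looked for, 6 were measured, and none passed the test in any comparison as fitted here. S100a8, the partner of S100a9 in calprotectin, followed it in part. In untreated TAM against PEC it was at 1.49 on TAM-b, -0.37 on TAM-2R, 2.38 on TAM-3 and 0.29 on TAM-8 (mean 0.95 ± 1.23, SD, n = 4, adjusted p = 0.458 by limma). TAM-3 and TAM-b were again the 2 highest, and TAM-2R lay below 0. With TAM-2R as deposited, S100a8 lay above 0 on it and S100a9 below 0. TAM-3 also had the widest spread of all arrays outside the last 4 groups of features (SD of log2 ratios 1.565). With LPS in PEC it was at 2.87 and 0.96, above 0 on both like S100a9. It parted from S100a9 on TAM-trial, at -2.50, and in the comparison with LPS in both cells, at -0.53 on TAM1 and -1.61 on TAM7.

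Granule genes divided by comparison. Camp, the cathelicidin stored in secondary granules like Ngp, was above 0 on 4 of 4 untreated arrays (0.84, 0.07, 1.92 and 1.20; mean 1.01 ± 0.77, SD, n = 4, adjusted p = 0.245 by limma) and on both arrays with LPS in both cells (0.91 and 1.23). Mmp9, a gelatinase of tertiary granules that macrophages also make, was likewise above 0 on 4 of 4 untreated arrays, between 0.55 and 1.17. Of the 13 measured granule proteins other than Ngp, these 2 alone were above 0 on all 4, as were 8.77% of all genes and features. That holds with TAM-2R turned. As deposited, TAM-2R put Camp and Mmp9 below 0, and 6.34% of all were above 0 on all 4. With TAM-2R turned another 2 of the 13 were below 0 on all 4, for which no share of all genes was taken. Of the 13, 5 had a mean above 0. Ltf, the lactoferrin of secondary granules, was at 0.26, 0.69, 0.99 and -0.39. Lcn2, an iron-scavenging granule protein that LPS also induces in macrophages, was at 2.68 on PEC1 and 3.98 on PEC2 with LPS, and below 0 on both arrays with LPS in both cells (-1.01 and -1.37), opposite to Ngp and Camp there. Mpo, the myeloperoxidase of primary granules, was below 0 on 3 of 4 untreated arrays (mean -0.24 ± 0.80, SD, n = 4, adjusted p = 0.798) and at 2.13 and 3.30 with LPS in both cells (mean 2.72 ± 0.83, SD, n = 2, adjusted p = 0.149 by limma). With the arrays centred and scaled, Mpo passed the test there (3.33, adjusted p = 0.0287 by limma). These values are with TAM1 turned. As deposited, TAM1 put Camp and Mpo below 0 and Lcn2 above it, so TAM1 and TAM7 disagreed in sign for each. Padi2, a deiminase of the same family as Padi4, did not share its values with LPS in PEC, at -1.13 and -2.85. Its feature also lies in the last 4 groups, and like Padi4 it was lowest on TAM1 as turned, at -6.45.

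**Figure D4:**
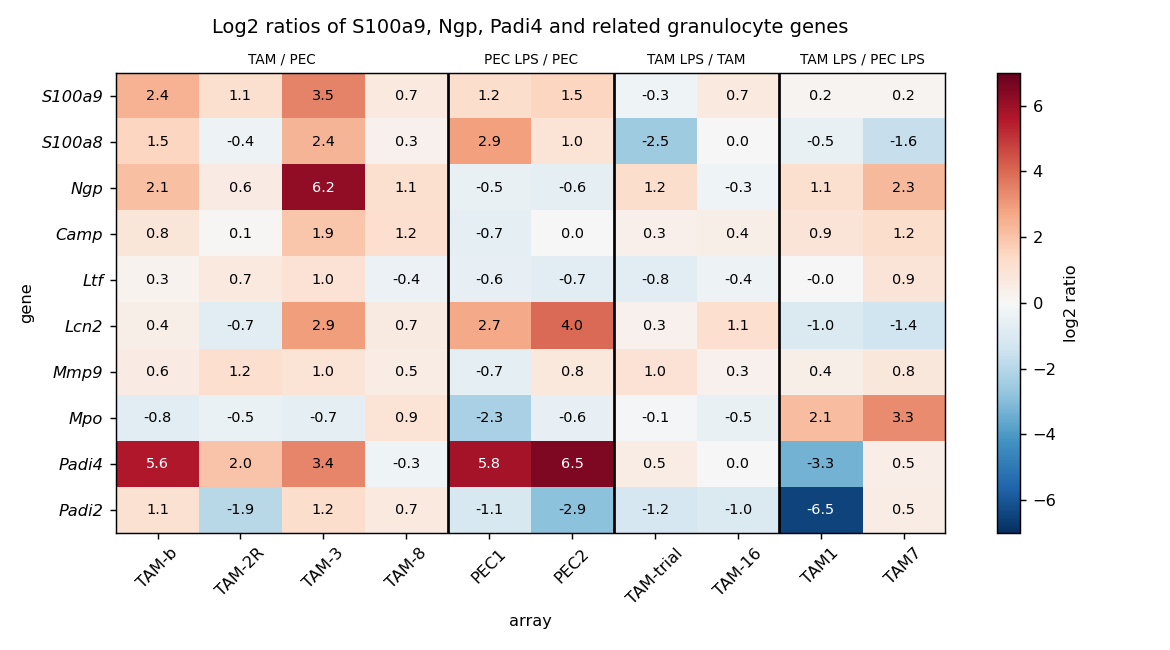
Log2 ratio on each array (columns, by comparison) for S100a9, Ngp, Padi4 and 7 related granulocyte genes (rows), with red above 0 and blue below. TAM-3, the array of widest spread outside the last 4 groups of features, is red for S100a9, S100a8, Ngp, Camp and Lcn2. With TAM1 turned, Mpo is red on TAM1 and TAM7, at 2.13 and 3.30.

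Most other genes of the granulocyte lists did not follow S100a9 and Ngp. Without the 3 genes, 63 of 124 listed genes were measured. In untreated TAM against PEC 23 of the 63 had a mean above 0, with a median of -0.24 against -0.02 over all genes. With TAM-2R turned, 12 of 63 were below 0 on all 4 arrays. No share of all genes was taken for that, so nothing is read from it. With the same turning, 4 of 63 were above 0 on all 4, against 8.77% of all. The 1 that passed the test was Slpi, a secreted protease inhibitor of neutrophils and macrophages, which fell (-2.12, -6.04, -4.77 and -4.30; mean -4.31 ± 1.64, SD, n = 4, adjusted p = 0.0122 by limma). Leaving out TAM-2R, TAM-3 or TAM-8 ended that call (adjusted p = 0.0522, 0.0604 and 0.075 by limma). The adjusted p by limma was 0.197 on the 4 arrays alone, 0.586 on print v3p6 alone and 0.826 with TAM1 and TAM-2R left unturned. The 13 other granule proteins had a median of -0.24, and array medians between -0.50 and 0.20. The 15 other S100 and annexin genes had a median of -0.73, with 3 above 0, S100a8 among them. The 13 surface and signalling genes had a median of -0.22, and Csf3r, the receptor for the granulocyte growth factor G-CSF, was at -0.51 ± 0.72 (SD, n = 4, adjusted p = 0.479 by limma). The 5 other deiminase and oxidative burst genes had a median of 0.14, the 14 granulopoiesis factors one of -0.24 and the 5 neutrophil-attracting chemokines one of 0.17, with none past the test. Of the other cell types an adherent harvest could hold, the median was -0.54 over 14 macrophage genes, of which 1 passed the test (C1qa, a complement subunit, higher at 2.12, adjusted p = 0.0412 by limma). That call was lost whichever 1 of the 10 arrays was left out, with adjusted p between 0.0644 and 0.147 by limma. It was also lost on print v3p6 alone (0.767), with TAM1 and TAM-2R left unturned (0.595), after centring on feature position (0.312), on the 4 arrays alone (0.24), after scaling (0.144) and with a dye term (0.0851). The median was 0.23 over 8 monocyte genes, -0.39 over 7 eosinophil, mast cell and basophil genes, 0.05 over 13 T and NK cell genes, -0.45 over 7 B and plasma cell genes and 0.40 over 7 erythroid and platelet genes. Their part in the values of S100a9, Ngp and Padi4 was not tested.

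The same lists lay on opposite sides in the 2 comparisons that involve PEC with LPS. That condition is named first in 1 of them and second in the other, so sharing it can by itself give opposite signs. In PEC 50 of the 63 other granulocyte list genes had a mean above 0 (median 0.63 against -0.04 over all genes), and 0 passed by limma, 19 having an unadjusted p under 0.05, as did 8.14% of all. The macrophage list lay on the same side, with 13 of 14 genes above 0 and a median of 1.09. As listed, it shares Lyz2 and Itgam with the granulocyte lists, so they are not separate sets of genes. The surface and signalling genes had a median of 0.98 there and the S100 and annexin genes one of 1.17. S100a9, at 1.37, lay near the latter, and no median was taken over S100 genes without the annexins. Ngp, at -0.58, was below the granule protein median of 0.25. With LPS in both cells 17 of the 63 had a mean above 0 (median -0.98 against 0.08), and 0 passed by limma, 24 having an unadjusted p under 0.05, as did 8.99% of all. The macrophage list had 6 of 14 above 0 and a median of -0.85. The part of macrophages in these list values was not tested. Ngp, Camp and Mpo were above 0 on both arrays where the granule list as a whole had a median of -0.27. That is with TAM1 turned. As deposited, TAM1 put Ngp, Camp and Mpo below 0, and the list medians were not taken with it so. In TAM with LPS 28 of the 63 were above 0 (median -0.10 against -0.13), and 0 passed by limma, 6 having an unadjusted p under 0.05, as did 5.58% of all.

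The genes whose values over the 10 arrays were most like each of the 3 did not include the granulocyte list genes. The arrays share prints and conditions, so these correlations are a description. S100a9 was most like Tet3 (r = 0.928, rho = 0.95), Mtx3 (0.920, 0.98), Phpt1 (0.904, 0.85), Zfp511 (0.901, 0.90) and Mgst3 (0.899, 0.89), with S100a8 at rank 71 of 6794 (r = 0.793, rho = 0.88). Ngp was most like Tln2 (r = 0.951, rho = 0.84), Cryba4 (0.947, 0.87), Parva (0.941, 0.77), Mag (0.937, 0.85) and Krt79 (0.935, 0.84), with Camp at rank 84 (r = 0.841, rho = 0.82) and Ltf at rank 259 (r = 0.714, rho = 0.64). Padi4 was most like Cops2 (r = 0.955, rho = 0.95), Atpaf2 (0.939, 0.88), Sra1 (0.937, 0.93), Ninj1 (0.925, 0.92) and Clta (0.923, 0.89). Of these 5, Cops2 and Ninj1 have features in the last 4 groups, which hold 3.89% of all features. Among themselves, S100a9 and Padi4 had r = 0.63 (rho = 0.70), S100a9 and Ngp r = 0.58 (rho = -0.08), and Ngp and Padi4 r = -0.05 (rho = -0.25), all over 10 arrays. For both S100a9 and Ngp the highest value of the 10 arrays was on TAM-3. Outside the last 4 groups TAM-3 had 6.2% of features beyond 3 in size, against 0.9% to 4.5% on the other arrays.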

How the data were processed

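The deposited value table holds log ratios made by the authors, treated here as log2. How images were read, background corrected, spots filtered and arrays normalized is not stated, nor is the log base. Base 2 was taken because recurring values on an array lay 1 apart, as ratios of small whole numbers do. Array medians lay between -0.199 and 0.067 and scaled median absolute deviations between 0.688 and 1.165. All 9596 features had values on all 10 arrays. Features were named from the platform table: 7486 had 1 symbol, 483 several and 1627 none. Features of a gene were averaged, which gave 8905 rows.

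The lmFit and eBayes steps of limma 3.58.1 (R 4.3.3) were run on all rows, with 1 mean for each of 4 comparisons, 6 residual and 3.841 prior degrees of freedom, and Benjamini-Hochberg adjustment. The number of arrays limits the precision. The genes and lists were chosen with earlier results of these data known. Named genes were the 3, their relatives, list genes past the test, and the 5 most correlated genes of each; Mmp9 and Csf3r were added after their values were seen. Alternatives were another coding of the exchanged arrays, centring, scaling, a dye term, a loop fit, feature position, each comparison alone, 1 print alone and leaving out each array. Promoters came from RefSeq, GRCm38.p6.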

Additional observations from a re-analysis of the deposited data

How the results depend on the processing

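Each of the 3 genes has 1 feature, so testing features singly gave nothing further. With the other coding of TAM-2R and TAM1, the log2 ratios with LPS in both cells became -0.02 for S100a9, 0.57 for Ngp and 1.91 for Padi4. Genes past the test then numbered 0 in untreated TAM, 2 in PEC with LPS and 0 with LPS in both, and 0 granulocyte list genes passed in untreated TAM. Centring the arrays put S100a9 with LPS in both at 0.15. Scaling put the LPS responses in PEC at 1.63 for S100a9, -0.66 for Ngp and 7.26 for Padi4, with 12, 3, 1 and 81 genes past the test (untreated TAM, LPS in PEC, LPS in TAM, LPS in both) and 5 list genes with LPS in both. A dye term put the responses in PEC at 1.05, -1.59 and 5.14 and that of Padi4 in TAM at -0.76, with 17 genes past the test in untreated TAM. The loop fit put S100a9 with LPS in both at 0.35, Ngp in PEC at -0.05, and Padi4 at 5.65 in PEC, where it was past the test (adjusted p = 0.0484 by limma), and at 0.79 in TAM. It called 28 genes and 2 list genes in PEC, and 137 and 9 with LPS in both. Centring on feature position put S100a9 at 0.70 in PEC, -0.51 in TAM and -0.30 with LPS in both, and Padi4 in TAM at 0.73, with 5 and 16 genes called in PEC and with LPS in both. On the arrays of each comparison alone 2, 0 and 0 genes passed (untreated TAM, LPS in PEC, LPS in both) and 0 list genes in untreated TAM, and on print v3p6 alone 0 in each. Print v9p2 alone put untreated Padi4 at -0.32. Leaving out each array in turn, the untreated means ranged from 1.4 to 2.34 for S100a9, 1.26 to 3.15 for Ngp and 1.69 to 3.66 for Padi4. With LPS in PEC they ranged from 1.22 to 1.51, -0.63 to -0.53 and 5.81 to 6.52, with LPS in TAM from -0.28 to 0.66, -0.29 to 1.23 and 0.0 to 0.53, and with LPS in both from 0.17 to 0.21, 1.13 to 2.28 and -3.33 to 0.48. Genes past the test then ranged from 6 to 24 in untreated TAM, 1 to 85 with LPS in PEC, 0 to 3 with LPS in TAM, 3 to 11 with LPS in both and 0 to 47 for the difference between the LPS responses. List genes called in untreated TAM ranged from 0 to 1. The causes were not tested. No paired analysis was possible because the comparisons share fewer than 2 replicate numbers.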

Other observations

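Ltb4r1, a receptor through which leukotriene B4 attracts neutrophils, had the highest untreated mean of the surface and signalling list. As for Ngp, its top value was on TAM-3, the array of widest spread outside the last 4 groups. Its log2 ratio was 3.54 on TAM-b, 2.33 on TAM-2R, 6.05 on TAM-3 and 0.07 on TAM-8 (mean 3.00 ± 2.50, SD, n = 4, adjusted p = 0.168 by limma). Csf1, the growth factor of macrophages, was the 1 granulopoiesis list gene above 0 on all 4 untreated arrays, at 0.83, 0.79, 1.05 and 1.58. As deposited, TAM-2R put Csf1 and Ltb4r1 below 0. Both genes were singled out after their values were seen.

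Some other genes whose features lie in the last 4 groups also had high values with LPS in PEC. Padi4 was at 5.81 on PEC1 and 6.52 on PEC2 there. Cops2, a subunit of the COP9 signalosome, was at 4.54 on PEC1 and 5.71 on PEC2, Impact, a regulator of translation, at 6.60 and 6.09, and Cd3d, a T cell receptor subunit, at 5.12 and 5.31. Cd79a, a B cell receptor subunit, was at 5.98 on TAM-b and 4.72 on TAM-3 but at -2.71 on TAM-8. These genes were also chosen after their values were seen, so they do not stand for the last 4 groups as a whole. Padi2, in the same groups, went the other way with LPS in PEC, at -1.13 on PEC1 and -2.85 on PEC2. On PEC2 11.5% of the features of these groups were beyond 3 in size, in either direction. The part of the groups in the Padi4 values was not tested.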
